A study of Mus musculus with 9 samples.

Results

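The substrate-receptor arm of the cullin 2 and cullin 5 ubiquitin ligases was examined across NIH 3T3 arrays, as 31 of the 18193 mouse genes that had a probe set of their own. The list is one of gene names, with no measured value in its rule, though earlier results of these data were known when it was drawn up. It holds elongin B and elongin C, and 29 receptors that carry a SOCS box, a VHL box or a related elongin-binding motif (BC box). They fell into 6 groups by role: 2 elongins, 4 SOCS proteins, 8 ASB proteins, 6 WSB and SPSB proteins, 8 cullin 2 receptors, and 3 genes made up of 2 RAB40 GTPases and Lrrc41. Each gene was read from 1 probe set, the one with the highest mean log2(signal + 16) over the 9 arrays.

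NIH 3T3 cells are fibroblasts, a line derived from mouse embryos. The 9 arrays came from cells that received an shRNA in a retroviral vector and were harvested 5 days later: 3 arrays for Ube2m shRNA, 3 for Ube2f shRNA and 3 for control shRNA. The growth label of all 3 groups describes the NIH 3T3 cells as expressing Ube2f; the labels do not say whether a construct had been added, or how many hairpins stood behind each target. The labels call the 3 arrays of a group biological replicates without saying that they were separate transductions, so p-values measure the spread between these arrays. The question the design puts is how loss of each NEDD8-conjugating enzyme moved transcript levels.

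An elongin B and elongin C pair links a receptor to its cullin. The receptor's SOCS box or VHL box holds the elongins, and its other domain holds the protein to be ubiquitinated. Cullin 5 pairs mostly with SOCS-box receptors and the RING protein Rbx2, encoded by Rnf7, and cullin 2 with VHL-box receptors and Rbx1. The ligases are switched on when NEDD8 is joined to the cullin, in which Ube2m works with Rbx1 and Ube2f works with Rbx2. SOCS proteins are best known in fibroblasts and blood cells as brakes on cytokine and growth factor receptors.

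All arrays carried a trimmed mean signal of 500. Their median signals lay between 53.3 and 58.5 in replicates 1 and 2 of the 3 groups, and at 73.2, 73.5 and 64 in replicate 3 of Ube2m shRNA, Ube2f shRNA and control shRNA cells. Control replicate 1 had an actin 3'/5' probe ratio of 1.82, and the other 8 arrays had 1.24 to 1.35. The transcript of Ube2f itself had signals of 135, 118 and 144 in Ube2f shRNA cells, against 2367, 2492 and 2757 in control cells, and 3029, 3140 and 2700.4 in Ube2m shRNA cells. Ube2f was thus low on every array labelled for its shRNA (log2 fold change -4.11 ± 0.12 (SE) against control, limma adjusted p = 7.45e-10). No probe set with Ube2m as its only gene was used, so the knockdown of Ube2m was not checked here. All 9 fibroblast marker genes had signals of at least 1096 on every array, and some differed between groups. Pdgfrb had 3845 to 4036 in Ube2m shRNA cells, 5122 to 6371 in Ube2f shRNA cells and 4514 to 5576 in control cells. Thy1 had 1787 to 2301 in Ube2m shRNA cells, 3090.2 to 3397 in Ube2f shRNA cells and 2744 to 4269 in control cells. Pdgfra had 1096 to 1401 in Ube2m shRNA cells, 2147 to 2942 in Ube2f shRNA cells and 1389 to 1509 in control cells. Of the 9, Pdgfrb and Thy1 had their Ube2m shRNA arrays, and Pdgfra its Ube2f shRNA arrays, apart from all control arrays. Of 6 markers each, 2 of macrophages, 2 of epithelium and 0 of endothelium were tested. The 6 macrophage markers summed to 381 to 627 in Ube2m shRNA cells, 403 to 451 in Ube2f shRNA cells and 479.5 to 528 in control cells. Of the 2 tested, Csf1r had 138 to 239 in Ube2m shRNA cells, 99.3 to 111 in Ube2f shRNA cells and 162 to 185 in control cells. Lyz2 had 136 to 155 in Ube2m shRNA cells, 184 to 214 in Ube2f shRNA cells and 179 to 196 in control cells. The 6 epithelial markers summed to 323 to 485 in Ube2m shRNA cells, 485 to 529.8 in Ube2f shRNA cells and 349 to 425 in control cells. The 2 tested were Cdh1 and Epcam. Cdh1 had 100 to 117 in Ube2m shRNA cells, 149 to 181 in Ube2f shRNA cells and 47.7 to 116 in control cells. Epcam had 126 to 153 in Ube2m shRNA cells, 120 to 211 in Ube2f shRNA cells and 126 to 185 in control cells. The part of these markers in the results was not tested. In these bulk arrays fewer cells of a type and less RNA per cell cannot be told apart.

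The 3 transcripts of this arm that passed the test against control were all lower in Ube2m shRNA cells. A gene was tested where its mean log2(signal + 16) reached the median of all non-control probe sets, 6.12. Of the 31 genes 27 were tested, and 4 lay below that level. In Ube2m shRNA against control cells 0 rose and 3 fell (Socs4, Socs5 and Fem1a) at a limma adjusted p under 0.05, which is 11.1% of 27, and 9.71% of all 10613 genes tested passed. Genes that fell made up 6.12% of all genes and genes that rose 3.59%. After centring of every array on its median signal, the calls over all genes split into 534 higher and 432 lower, against 381 higher and 650 lower as deposited. The median log2 fold change of the 27 was -0.055, beside -0.038 over all genes tested, and their median absolute log2 fold change was 0.14, beside 0.19. The 3 arrays of 1 group lay wholly above or below the other's for 8 of the 27, beside 29.7% of all genes. Leaving out single arrays lowered the count and the share of all genes together: 0 of 27 passed without Ube2m shRNA replicate 2, beside 3.66% of all genes. The count was 1 without Ube2m shRNA replicate 1, control replicate 1 or control replicate 2, beside 4.17%, 4.45% and 6.77% of all genes.

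In Ube2f shRNA against control cells none of the 27 passed in limma, where 5.19% of all genes did (2.23% higher and 2.96% lower). Before adjustment, 1 was higher and 0 were lower with p under 0.05, beside 20.2% of all genes that differed either way. Their median log2 fold change was 0.0041, beside 0.011 over all genes, and the median absolute log2 fold change was 0.082, beside 0.18. Groups of 3 arrays did not overlap for 3 of the 27, beside 23.2% of all genes. Without control replicate 3 the count was 1, Appbp2, beside 4.3% of all genes. Both comparisons use the same 3 control arrays.

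Set directly against each other, Ube2m shRNA and Ube2f shRNA cells differed in 2 of the 27, Socs4 and Fem1a, both lower in Ube2m shRNA cells (7.41%, beside 15.8% of all genes, 6.37% higher and 9.38% lower). The median log2 fold change of the 27 was -0.15, beside -0.044 over all genes. The 3 arrays of a group did not overlap those of the other for 15 of the 27, beside 34.4% of all genes. With the replicate number as a block, 1 gene was higher (Klhdc3, log2 fold change 0.30, adjusted p = 0.0389) and 4 were lower, where 23.5% of all genes passed, 9.35% higher and 14.1% lower. The 4 were Socs4 (adjusted p = 0.00354), Asb3 (log2 fold change -0.34, adjusted p = 0.0304), Socs5 (log2 fold change -0.29, adjusted p = 0.0353) and Fem1a (adjusted p = 0.0374). The count was 0 without Ube2m shRNA replicate 2, beside 9.58% of all genes. It was 1 without Ube2m shRNA replicate 1 or 3, Ube2f shRNA replicate 1 or 2, or control replicate 2, beside 9.59% to 14.9% of all genes.

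**Figure D1:**
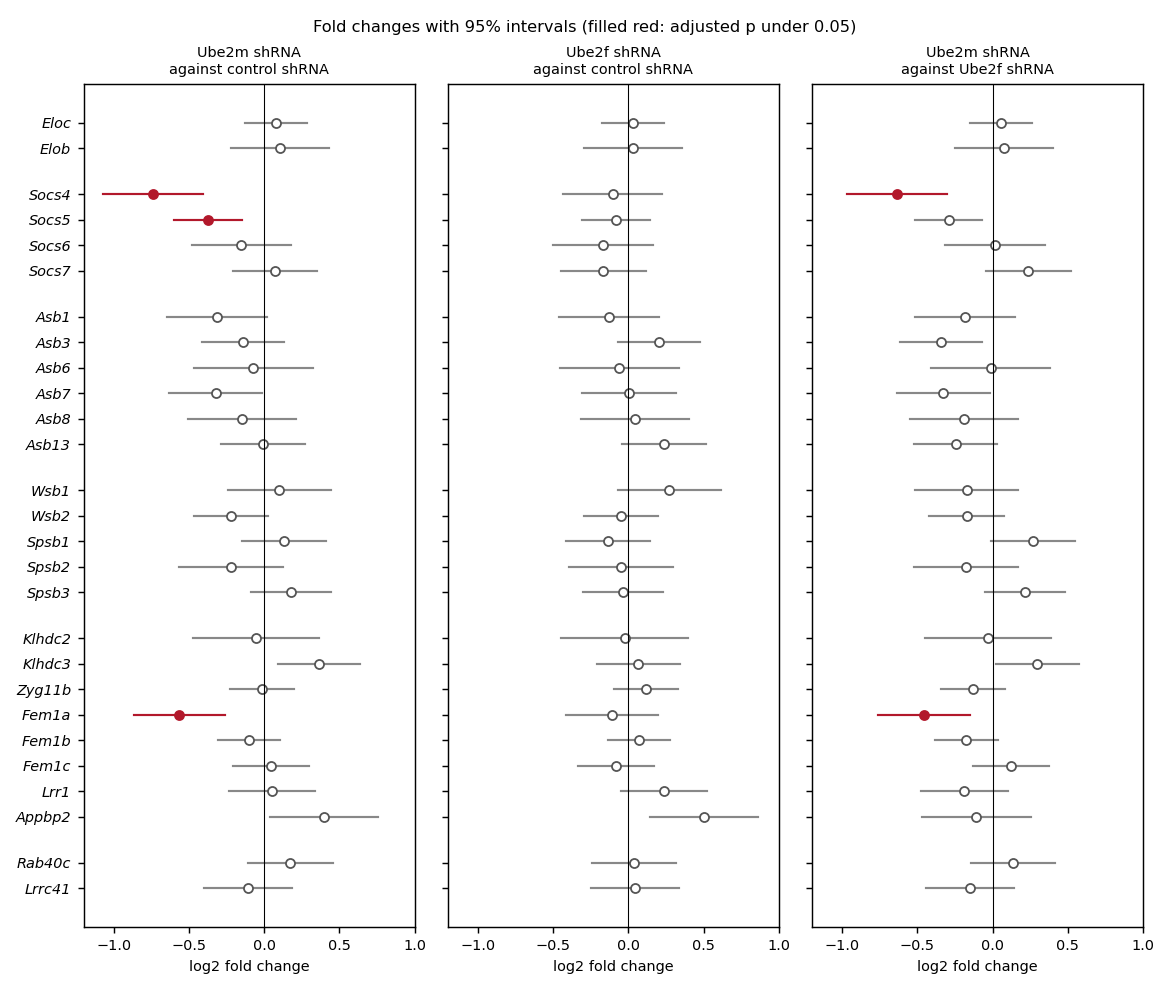
Log2 fold changes of the 27 tested genes with their 95% intervals, grouped by role, for the 3 comparisons; filled points passed a limma adjusted p under 0.05. Filled points are Socs4, Socs5 and Fem1a for Ube2m shRNA against control, none for Ube2f shRNA against control, and Socs4 and Fem1a for Ube2m shRNA against Ube2f shRNA.

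The SOCS group held the largest log2 fold change among the 27. Socs4 encodes a SOCS-box receptor that binds phosphorylated epidermal growth factor receptor. Its signals were 658, 531 and 783 in Ube2m shRNA cells, 1019, 883 and 1173 in Ube2f shRNA cells, and 1152, 1133 and 1007 in control cells. The 3 Ube2m shRNA arrays lay below all 6 others, while the Ube2f shRNA and control arrays overlapped. Means were 657 ± 126, 1025 ± 145 and 1097 ± 79.0 (SD, n = 3 each) in Ube2m shRNA, Ube2f shRNA and control cells. The log2 fold change was -0.74 ± 0.15 (SE) for Ube2m shRNA against control (limma adjusted p = 0.0105). Taken back from log2, signal + 16 stood at 59.9% of control. Against Ube2f shRNA the log2 fold change was -0.64 ± 0.15 (limma adjusted p = 0.0134). Ube2f shRNA against control gave -0.10 (limma adjusted p = 0.765). Without Ube2m shRNA replicate 2, the lowest array, Socs4 missed the threshold in both (log2 fold change -0.60, adjusted p = 0.0567, against control; -0.49, adjusted p = 0.0697, against Ube2f shRNA).

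The change of Socs4 against control stood in 1 of its 4 probe sets. The other 3, all dimmer, had differences of 0.15, 0.0063 and 0.20 (log2) between Ube2m shRNA and control cells, and the mean over all 4 gave -0.094 (limma adjusted p = 0.815). Within replicates 1 and 2 the used probe set had a log2 difference of -0.93 between Ube2m shRNA and control cells, and within replicate 3 one of -0.36.

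Socs5, a relative of Socs4 with a like role at the epidermal growth factor receptor, had signals of 2062, 2071 and 2167 in Ube2m shRNA cells, 2806, 2486 and 2444 in Ube2f shRNA cells, and 2659, 2542 and 2998 in control cells. All 3 Ube2m shRNA arrays lay below the 6 others. The log2 fold change was -0.37 ± 0.10 (SE) for Ube2m shRNA against control (limma adjusted p = 0.0393), -0.083 for Ube2f shRNA against control (adjusted p = 0.714) and -0.29 for Ube2m shRNA against Ube2f shRNA (adjusted p = 0.0775). The call against control held in 2 of 9 fits that left out 1 array, those without Ube2f shRNA replicate 2 or 3; the fold change ranged from -0.42 to -0.31. It also missed the threshold with no filter (adjusted p = 0.0519), with arrays centred on their median (log2 fold change -0.29, adjusted p = 0.119), after quantile normalization (0.0593), with the 2 groups alone (0.0537) and without trend (0.0708).

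A second Socs5 probe set had signals of 1194, 1409 and 1427 in Ube2m shRNA cells, 1396, 1568 and 1619 in Ube2f shRNA cells, and 2211, 1949 and 2401 in control cells. Here the arrays of both knockdowns lay below all 3 control arrays. In a fit of every probe set, chosen after the values were seen, its log2 fold change was -0.70 for Ube2m shRNA (limma adjusted p = 0.00805) and -0.51 for Ube2f shRNA against control (limma adjusted p = 0.0427). Between Ube2m shRNA and Ube2f shRNA cells it was -0.18 (limma adjusted p = 0.397). In that fit the first probe set gave -0.37 (adjusted p = 0.0583) for Ube2m shRNA against control. Of the 40 further probe sets of the genes tested there, this was the one that passed, beside 5.37% and 3.39% of all 19684 probe sets for Ube2m shRNA and Ube2f shRNA against control. Between Ube2m shRNA and Ube2f shRNA cells 0 of the 40 passed in limma, beside 10.8%.

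Socs6, which acts on receptor tyrosine kinases such as Kit, had a log2 fold change of -0.15 for Ube2m shRNA (limma adjusted p = 0.596) and -0.17 for Ube2f shRNA against control (adjusted p = 0.587). Socs7 had 0.072 (adjusted p = 0.797) for Ube2m shRNA and -0.17 (adjusted p = 0.525) for Ube2f shRNA.

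**Figure D2:**
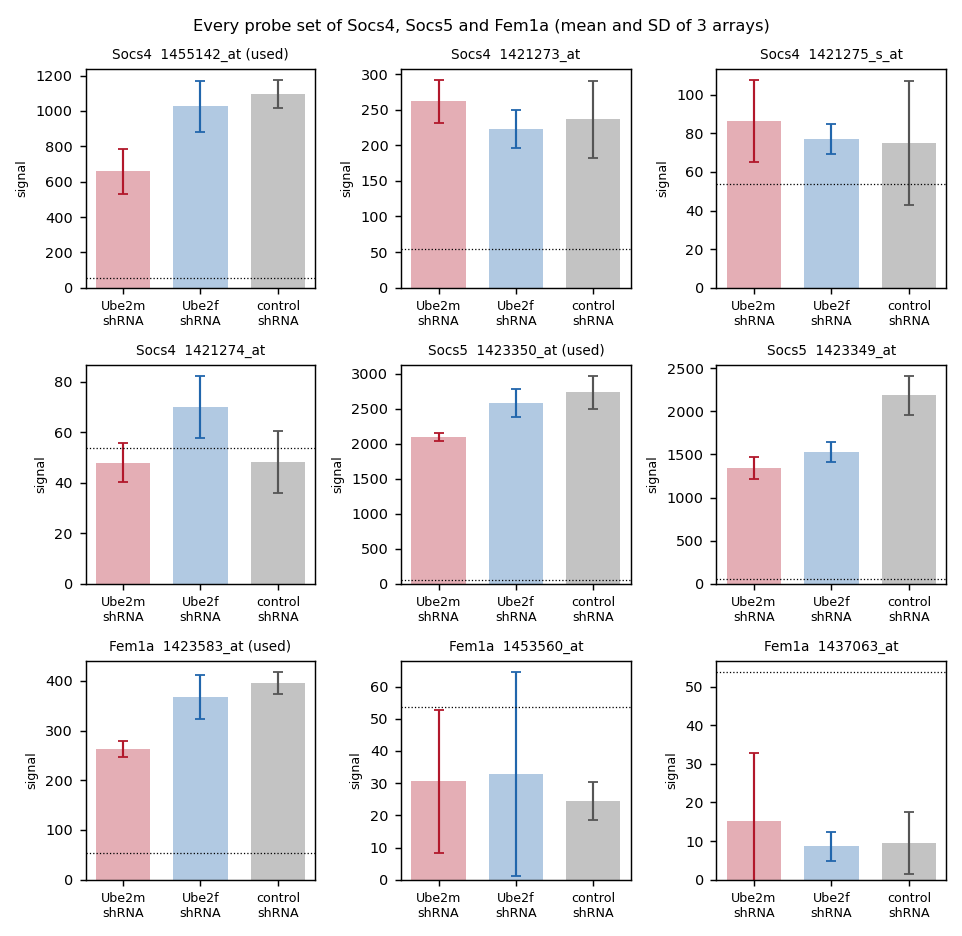
Mean signal (bars) and SD (lines, n = 3, cut at 0) of Ube2m shRNA, Ube2f shRNA and control cells for every probe set of Socs4, Socs5 and Fem1a; the dotted line is the level for testing, a signal of 53.8. The used Socs4 probe set averages 657 in Ube2m shRNA cells and 1097 in control cells, and the second Socs5 probe set 1343, 1527 and 2187 in Ube2m shRNA, Ube2f shRNA and control cells.

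Fem1a encodes a cullin 2 receptor that recognises proteins ending in particular residues (C-degrons). Its signals were 248, 263 and 279 in Ube2m shRNA cells, 403, 381 and 319 in Ube2f shRNA cells, and 412, 406 and 371 in control cells. The 3 Ube2m shRNA arrays lay below all others, and the Ube2f shRNA and control arrays overlapped. The log2 fold change was -0.56 ± 0.14 (SE) for Ube2m shRNA against control (limma adjusted p = 0.026), -0.45 ± 0.14 against Ube2f shRNA (limma adjusted p = 0.0454), and -0.11 for Ube2f shRNA against control (adjusted p = 0.723). The call against control was lost without Ube2m shRNA replicate 1 (adjusted p = 0.103) or 2 (0.088), or control replicate 1 (0.0814) or 2 (0.0679). The call against Ube2f shRNA was lost without Ube2m shRNA replicate 1, 2 or 3, Ube2f shRNA replicate 1 or 2, or control replicate 2 (adjusted p from 0.0614 to 0.173). With no filter neither call held (adjusted p = 0.0589 against control and 0.101 against Ube2f shRNA), and the call against Ube2f shRNA was also lost with centring (0.0844), quantile normalization (0.108) and the 2 groups alone (0.0599). Its 2 other probe sets lay below the level, and the mean over all 3 gave -0.083 (limma adjusted p = 0.888).

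Socs4 and Fem1a are the genes of this group that were lower in both comparisons of Ube2m shRNA cells, so the 250 bases before their starts are printed, from RefSeq for GRCm38.p6, 5′ to 3′. Both genes lie on the plus strand, Socs4 at chr14:47276670-47276919 and Fem1a at chr17:56256543-56256792. Capitals mark the GC box (GGGCGG, read on the minus strand) of Socs4, which starts 41 bases before the gene's start, and the CCAAT box (read on the minus strand) of Fem1a, which starts 162 bases before it.
Socs4: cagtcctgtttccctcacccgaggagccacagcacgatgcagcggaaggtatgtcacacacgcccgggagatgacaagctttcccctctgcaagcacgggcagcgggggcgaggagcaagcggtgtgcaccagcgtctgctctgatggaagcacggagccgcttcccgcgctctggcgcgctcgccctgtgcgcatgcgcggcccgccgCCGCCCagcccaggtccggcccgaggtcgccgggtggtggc
Fem1a: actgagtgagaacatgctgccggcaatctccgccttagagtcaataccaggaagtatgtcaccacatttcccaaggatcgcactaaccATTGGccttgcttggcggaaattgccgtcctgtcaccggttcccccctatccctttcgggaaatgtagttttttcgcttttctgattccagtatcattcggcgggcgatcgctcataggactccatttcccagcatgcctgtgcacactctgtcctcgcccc
The Socs4 window was 70.4% G and C with 27 CpG, and the Fem1a window 52.8% with 13. Motifs were searched on both strands in 33 promoters of the 25 genes that matched, beside all 32851 promoters of the table. The GC box GGGCGG was in 19 (57.6%, beside 32.7% of all), CCAAT in 13 (39.4%, beside 33.8%), and the cAMP response letters TGACGTCA in 2 (6.06%, beside 1.55%). The antioxidant response letters TGANNNNGC were in 11 (33.3%, beside 35.2%), and the STAT letters TTCNNNGAA in 0, beside 7.02%. In each printed window the marked stretch was the only match of these motifs. The median number of CpG was 18 in the 33, beside 6 in all.

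Neither elongin passed in any of the 3 comparisons. Eloc, elongin C, which binds the receptor's box, had signals of 9111, 9090.5 and 9408 in Ube2m shRNA cells, 8819.5, 8686 and 9101 in Ube2f shRNA cells, and 8068, 8466 and 9629.5 in control cells. The groups overlapped. Elob, elongin B, the partner of elongin C, had 15485, 13507 and 11155 in Ube2m shRNA cells, 12896, 15271 and 10152 in Ube2f shRNA cells, and 12522, 12570.2 and 11953 in control cells, and again the groups overlapped. Log2 fold changes against control for Eloc were 0.081 with Ube2m shRNA (95% interval -0.13 to 0.29) and 0.028 with Ube2f shRNA (-0.18 to 0.23). For Elob they were 0.10 (-0.22 to 0.43) and 0.029 (-0.30 to 0.35). These intervals hold for the probe set used. In the fit of every probe set, the 3 other Eloc probe sets were higher, without passing. They gave 0.66 (limma adjusted p = 0.0606), 0.30 (0.261) and 0.38 (0.592) for Ube2m shRNA against control. For Ube2f shRNA against control they gave 0.52 (0.157), 0.12 (0.711) and 0.41 (0.592).

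**Figure D3:**
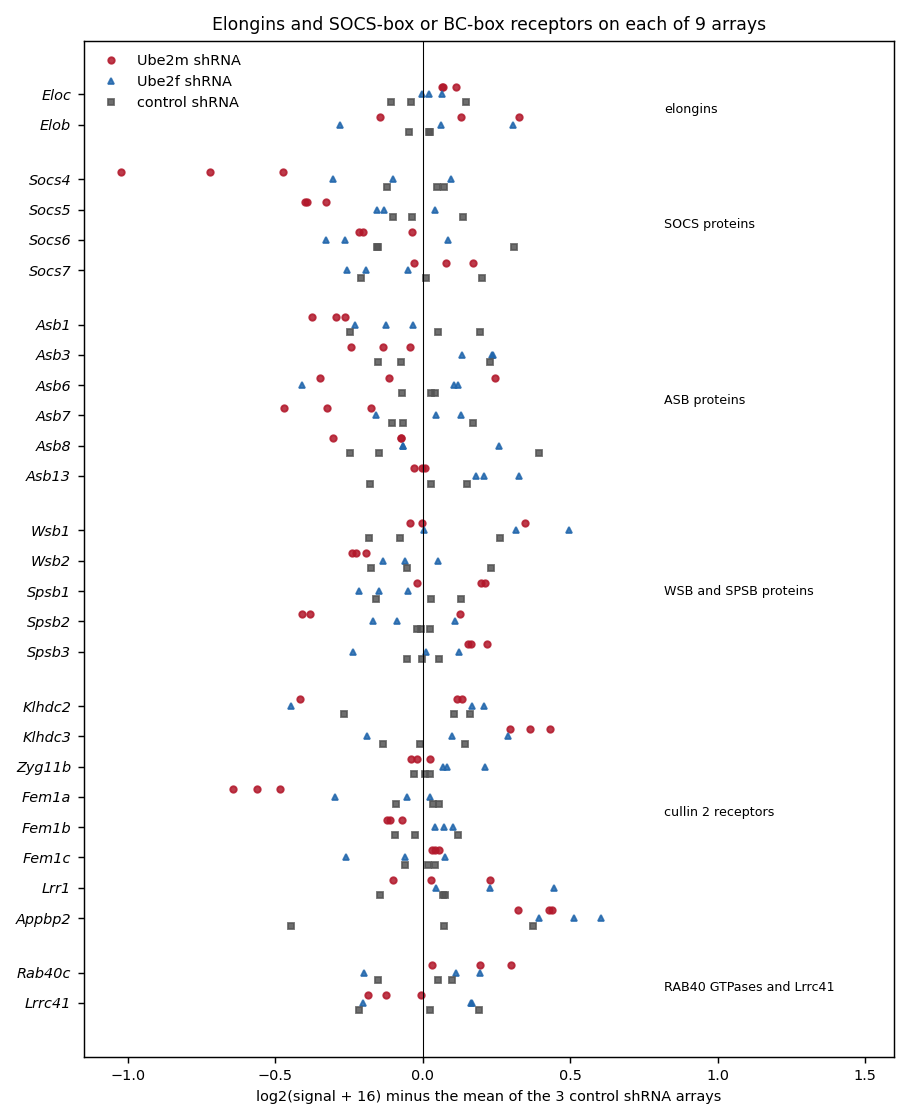
Each of the 9 arrays as log2(signal + 16) minus the mean of the 3 control arrays, for the 27 tested genes grouped by role. Socs4, Socs5 and Fem1a have their 3 Ube2m shRNA arrays left of every control array, and the elongin arrays overlap between groups.

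The 6 tested ASB proteins, ankyrin-repeat receptors of cullin 5 ligases, all had a negative log2 fold change for Ube2m shRNA against control, from -0.32 to -0.0077, and none passed. Of all 10613 genes tested 5899 were negative there. Over the 12 other settings and 9 fits without 1 array, the sign held throughout for Asb1 and turned at least once for Asb3, Asb6, Asb7, Asb8 and Asb13. Asb6 and Asb13 turned with arrays centred on their median. The largest was Asb7 (-0.32, limma adjusted p = 0.185). For Ube2f shRNA against control they spanned -0.13 to 0.24, with Asb13 the largest (adjusted p = 0.331). For Ube2m shRNA against Ube2f shRNA the log2 fold change was negative for all 6, from -0.34 to -0.012, and for 5939 of all 10613 genes. Both comparisons use the same 3 Ube2m shRNA arrays. The sign turned for Asb6 with centring, quantile normalization and 4 of the 9 fits without 1 array, and for Asb7 with the mean of all probe sets. The largest was Asb3 (adjusted p = 0.0861 without and 0.0304 with the replicate block). Asb3 had 742, 792 and 688 in Ube2m shRNA cells, 965, 967 and 898 in Ube2f shRNA cells, and 774, 960.0 and 733 in control cells, so its Ube2m shRNA and Ube2f shRNA arrays did not overlap.

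The 5 tested WSB and SPSB proteins, WD-repeat and SPRY-domain receptors, spanned log2 fold changes of -0.22 to 0.18 for Ube2m shRNA and -0.14 to 0.27 for Ube2f shRNA against control, with none past the threshold. Spsb2, which targets inducible nitric oxide synthase, was the largest for Ube2m shRNA (-0.22, adjusted p = 0.431), and Wsb1 for Ube2f shRNA (0.27, adjusted p = 0.366). Between Ube2m shRNA and Ube2f shRNA cells the largest was Spsb1 (0.27, adjusted p = 0.194).

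Among the 8 cullin 2 receptors 1 passed, Fem1a. Klhdc3 and Appbp2 are named here after their values were seen. Klhdc3, which like its relatives recognises C-degrons, had 3864, 3687 and 3513 in Ube2m shRNA cells, 3063, 3498 and 2507 in Ube2f shRNA cells, and 3161, 2839 and 2605 in control cells. Every Ube2m shRNA array was above every Ube2f shRNA and control array. The log2 fold change for Ube2m shRNA against control was 0.36 (limma adjusted p = 0.0926). With replicate 3 as a batch term Klhdc3 passed (adjusted p = 0.0117), where 20% of all genes did. Of 9 fits without 1 array it passed in 1, without Ube2f shRNA replicate 3 (adjusted p = 0.0442). In the other fits adjusted p reached 0.26.

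Appbp2, which binds the amyloid precursor protein, had 2833, 2856 and 2632 in Ube2m shRNA cells, 3009.9, 2768 and 3206 in Ube2f shRNA cells, and 1536, 2212 and 2732 in control cells. The control arrays spread most, and the lowest was control replicate 1, the array with the actin ratio of 1.82. The log2 fold change for Ube2f shRNA against control was 0.50 (limma adjusted p = 0.105, and 0.033 with replicate 3 as a batch term), 0.28 without control replicate 1 (adjusted p = 0.277) and 0.69 without control replicate 3 (adjusted p = 0.0205). For Ube2m shRNA it was 0.40 (adjusted p = 0.161), 0.17 without control replicate 1 (adjusted p = 0.489) and 0.58 without control replicate 3 (adjusted p = 0.0274). Rab40c, a GTPase with a SOCS box, had 0.17 for Ube2m shRNA against control (adjusted p = 0.447), and Lrrc41, a leucine-rich receptor, 0.043 for Ube2f shRNA against control (adjusted p = 0.902) and -0.15 for Ube2m shRNA against Ube2f shRNA.

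For the 24 tested genes that passed in no comparison, 95% intervals of the log2 fold change lay within -0.65 to 0.76 for Ube2m shRNA against control, -0.50 to 0.87 for Ube2f shRNA against control and -0.64 to 0.57 for Ube2m shRNA against Ube2f shRNA. The 4 genes below the level, Asb4, Asb11, Spsb4 and Rab40b, had signals from 1.9 to 49 over all 9 arrays. By replicate, 7 of the 27 were higher in replicate 3 than in the mean of replicates 1 and 2 in all 3 groups, 9 were lower in all 3, and 11 were mixed. The same counts were not made over all genes, so these are not read as a trait of the list. Klhdc2 was lower, with differences of -0.54 with Ube2m shRNA, -0.63 with Ube2f shRNA and -0.40 with control shRNA on the log2 scale in replicate 3, and Wsb1 was higher, with differences of 0.37, 0.34 and 0.39.

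Among other SOCS-box and BC-box genes, Socs1, Socs2, Socs3 and Cish passed in at least 1 comparison. Of 26 listed, 13 were tested. In Ube2m shRNA against control cells 1 rose (Socs3) and 1 fell (Socs2), 15.4% beside 9.71% of all genes. In Ube2f shRNA against control cells 4 rose and 0 fell, 30.8% beside 5.19%. Between Ube2m shRNA and Ube2f shRNA cells 0 were higher and 2 lower (Socs2 and Cish), 15.4% beside 15.8%. Their median absolute log2 fold changes were 0.12, 0.20 and 0.26 in these comparisons, beside 0.19, 0.18 and 0.21 over all genes. Socs2, Cish and Socs1 are feedback inhibitors induced by cytokine signalling through STAT factors. Socs2 had 289, 328 and 272 in Ube2m shRNA cells, 1747, 1378 and 1675 in Ube2f shRNA cells, and 400.4, 509 and 838 in control cells. Ube2f shRNA arrays lay above all others and Ube2m shRNA arrays below all others. Its log2 fold change was -0.88 ± 0.21 (SE) for Ube2m shRNA (limma adjusted p = 0.024) and 1.49 ± 0.21 for Ube2f shRNA against control (limma adjusted p = 0.00183). The call for Ube2m shRNA was lost without Ube2m shRNA replicate 1, 2 or 3 (adjusted p from 0.0574 to 0.0786), without trend (0.0507), and with the mean of all probe sets (log2 fold change -0.40, adjusted p = 0.307).

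Cish had 155, 151 and 176 in Ube2m shRNA cells, 322, 395 and 344 in Ube2f shRNA cells, and 191, 183 and 222 in control cells, so that Ube2f shRNA arrays lay above all others. Its log2 fold change was 0.78 for Ube2f shRNA against control (limma adjusted p = 0.0153) and -1.06 for Ube2m shRNA against Ube2f shRNA (limma adjusted p = 0.000835). The first was lost without Ube2f shRNA replicate 2 (adjusted p = 0.0655) or control replicate 1 (0.0505). Socs1 had 67.7, 89.4 and 149 in Ube2m shRNA cells, 136, 167 and 126 in Ube2f shRNA cells, and 57.8, 46.6 and 48.3 in control cells, where both knockdowns lay above all control arrays. It rose in Ube2f shRNA against control cells (log2 fold change 1.24, limma adjusted p = 0.02). That call was lost with no filter (0.0533), and without Ube2f shRNA replicate 1 (0.0739) or 2 (0.0804), or control replicate 1 (0.0514) or 2 (0.0523). 

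Socs3, another feedback inhibitor, had signals of 1135, 1268 and 1219 in Ube2m shRNA cells, 1434, 1412 and 1536 in Ube2f shRNA cells, and 883, 820.3 and 966 in control cells. The 3 groups did not overlap. Its log2 fold change was 0.44 for Ube2m shRNA (limma adjusted p = 0.0249) and 0.71 for Ube2f shRNA against control (limma adjusted p = 0.00254), from a probe set that may read several transcripts. The call for Ube2m shRNA was lost without Ube2m shRNA replicate 1, 2 or 3 or control replicate 1 or 2 (adjusted p from 0.0584 to 0.112). The mean of all probe sets gave 0.10 (adjusted p = 0.772) for Ube2m shRNA and 0.48 (adjusted p = 0.119) for Ube2f shRNA. Without probe sets of that kind it had -0.080 (adjusted p = 0.862) for Ube2m shRNA and 0.29 (adjusted p = 0.484) for Ube2f shRNA. Vhl, the VHL-box receptor of HIF, had -0.10 (adjusted p = 0.833) for Ube2m shRNA and 0.12 (adjusted p = 0.822) for Ube2f shRNA against control.

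**Figure D4:**
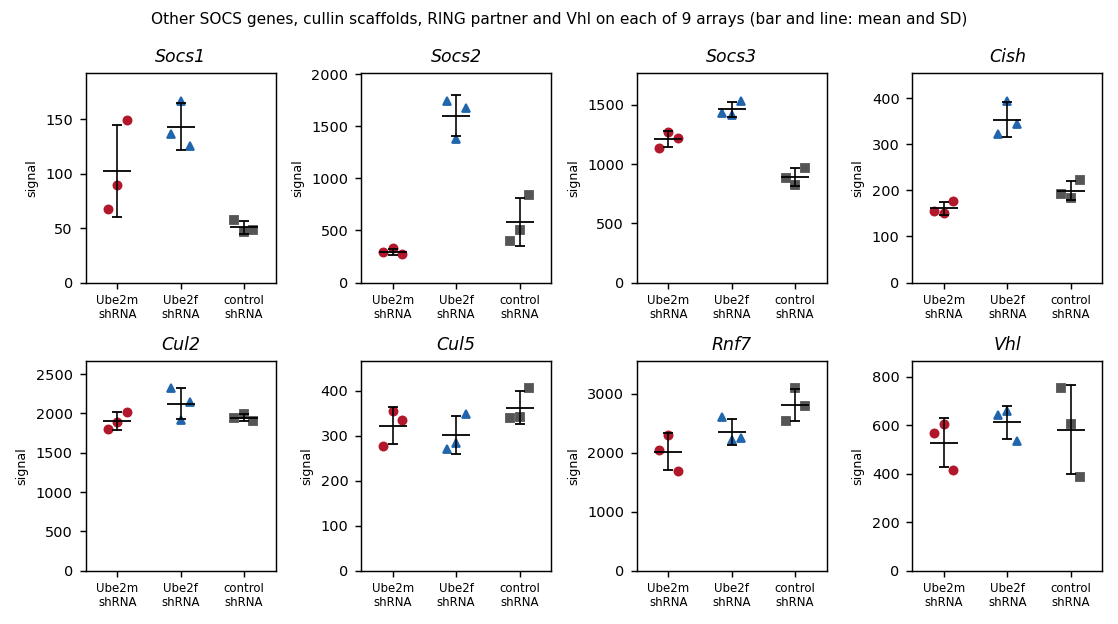
Signals on each of the 9 arrays (points), with mean and SD (n = 3) per group, for Socs1, Socs2, Socs3, Cish, Cul2, Cul5, Rnf7 and Vhl; each panel has its own axis from 0. Socs2 has its 3 Ube2f shRNA arrays between 1378 and 1747, above the other 6.

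Of 22 scaffold and NEDD8 partner genes 20 were tested, and those that passed were 2 for Ube2m shRNA against control (10%, beside 9.71% of all genes), 1 for Ube2f shRNA against control (5%, beside 5.19%) and 1 for Ube2m shRNA against Ube2f shRNA (5%, beside 15.8%). Cul2 had a log2 fold change of -0.035 for Ube2m shRNA (limma adjusted p = 0.885) and 0.12 for Ube2f shRNA against control (adjusted p = 0.57). Cul5 had -0.16 (adjusted p = 0.577) and -0.26 (adjusted p = 0.388). Rbx1 lay below the level on its probe set. Rnf7 had 2054, 2310.1 and 1688 in Ube2m shRNA cells, 2613, 2214 and 2249 in Ube2f shRNA cells, and 2544, 3093 and 2801 in control cells. Ube2m shRNA arrays lay below all control arrays, and it fell against control (log2 fold change -0.48, limma adjusted p = 0.0363). Dcun1d2, which helps NEDD8 transfer to cullins, had 732, 786 and 782 in Ube2m shRNA cells, 865, 811 and 796 in Ube2f shRNA cells, and 1078, 1073 and 1005 in control cells. Both knockdowns lay below all control arrays, and it fell with Ube2m shRNA (log2 fold change -0.45, limma adjusted p = 0.0192). With Ube2f shRNA Dcun1d2 had -0.35 against control (limma adjusted p = 0.0782, and 0.0406 with the replicate block). Between Ube2m shRNA and Ube2f shRNA cells it had -0.10 (limma adjusted p = 0.582). For Ube2m shRNA against control, Rnf7 missed the threshold without Ube2m shRNA replicate 1 or 3 or any control replicate (adjusted p from 0.0564 to 0.114). Dcun1d2 missed it there without Ube2m shRNA replicate 1 or 2 or control replicate 1 or 2 (adjusted p from 0.0554 to 0.0924). Rnf7 also missed it with no filter, the mean of all probe sets, centring, replicates 1 and 2 alone or no trend (adjusted p from 0.0519 to 0.0992), and Dcun1d2 with the mean of all probe sets (log2 fold change -0.29, adjusted p = 0.224). Ube2f, the gene targeted by Ube2f shRNA, was the 1 partner that fell with that shRNA against control. It was also the 1 that was higher in Ube2m shRNA than in Ube2f shRNA cells. With the replicate block a second was higher there, Arih2 (log2 fold change 0.53, adjusted p = 0.00713), a ubiquitin ligase that works with cullin 5.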

How the data were processed

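Total RNA from 9 NIH 3T3 samples was measured on 1-colour Affymetrix mouse arrays, 3 per group. The deposited values are intensity, MAS5 signals per the submitters' processing notes; further steps by the authors: not given in the sources used here. From the values, every array has the same trimmed mean, 500 with 2% trimmed. Of 45101 probe sets, 64 controls, 932 of several genes and 9160 with no gene name in the platform table were left out, which left 18193 genes.

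From these, log2(signal + 16) was computed, with 1 probe set per gene (highest mean) and a filter at the median of non-control probe sets. The fit over 10613 genes was made in R 4.3.3 with limma 3.58.1 (eBayes with an intensity trend on 1 mean per group) and Benjamini-Hochberg adjustment and threshold 0.05, and it was tested on simulated data. No depth exists for arrays, and 3 arrays per group limit the precision. Genes and lists were chosen with earlier results of these data known. Named were the elongins and the genes past the threshold, with their arrays, and, by fold change, the largest of each role group in which none passed. Klhdc3, Appbp2 and the arrays of Asb3 were added after their values were seen.

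Same-numbered Ube2m shRNA and Ube2f shRNA arrays deviated together (r = 0.20, 0.21 and 0.56 over genes), so for that comparison the block is given beside the result. Replicate 1 did not correlate best with its own number there either, so a pairing of these arrays is not established. Alternatives were the added constant, filter, probe set rule, scaling, block, batch term for replicate 3, trend, arrays in the fit and leaving out each array.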

Additional observations from a re-analysis of the deposited data

Results flagged for a closer look

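The 2 knockdowns differed from each other directly, tested with limma over all genes, for 5 genes of these lists. They were 2 of the 27 tested genes of this arm (7.41%), 2 of 13 other SOCS-box and BC-box genes (15.4%) and 1 of 20 partners (5%). Of all genes tested 15.8% passed, so the lists did not exceed that share. The log2 fold change of Ube2m shRNA against Ube2f shRNA was -0.64 for Socs4 (adjusted p = 0.0134) and -0.45 for Fem1a (adjusted p = 0.0454). It was -2.37 for Socs2 (adjusted p = 1.74e-05) and -1.06 for Cish (adjusted p = 0.000835). Ube2f, the target of Ube2f shRNA, had 4.33 (adjusted p = 1.96e-10).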

How the results depend on the processing

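The 27 tested genes of the 31 gave 1698 results under 12 other settings and 9 fits that left out 1 array. Of these, 1648 kept their side of the threshold, 33 lost and 17 gained it. Among them 0 called values changed sign, and 94 that passed in neither fit did. Counts past the threshold are given with the share of all genes in the same fit. For Ube2m shRNA against control the count was 3, with 1 under no filter (4.28%) or the mean of all probe sets (6.06%) and 5 with replicates 1 and 2 alone (16.5%); leaving out 1 array gave 0 to 4 (3.66% to 11.1%). For Ube2f shRNA against control it was 0, with 1 under the replicate block (11.5%), the batch term (13.8%) or replicates 1 and 2 alone (10.6%); leaving out 1 array gave 0 to 1 (1.84% to 5.49%). Between Ube2m shRNA and Ube2f shRNA cells it was 2, with 1 under no filter (7.62%), centring (15.1%), quantile normalization (15.5%) or the 2 groups alone (16.6%), 0 with the mean of probe sets (11.1%), and 5 with the replicate block (23.5%) or the batch term (25.6%); leaving out 1 array gave 0 to 2 (9.58% to 17.1%).

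For the other SOCS-box genes the Ube2m shRNA count was 2 (9.71% of all genes). It was 0 under the mean of probe sets (6.06%), and 1 without probe sets of several transcripts (9.72%) or without trend (7.53%). Leaving out 1 array gave 0 to 2 (3.66% to 11.1%), and 2 to 4 for Ube2f shRNA (1.84% to 5.49%). For the partners, the Ube2m shRNA count was 2 (9.71%). It was 1 under no filter (4.28%), centring (9.1%) or no trend (7.53%), and 0 under the mean of probe sets (6.06%). Leaving out 1 array gave 0 to 2 (3.66% to 11.1%). For Ube2f shRNA the partner count was 1 (5.19%), with 2 under quantile normalization (5.38%) or replicates 1 and 2 alone (10.6%). It was 3 with the replicate block (11.5%) or batch term (13.8%). Between knockdowns it was 1 (15.8%), with 2 under centring (15.1%), the replicate block (23.5%), the batch term (25.6%) or replicates 1 and 2 alone (19.1%). Leaving out 1 array gave 1 to 2 (9.58% to 17.1%).

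Outside the 1698 results counted above, direction turned for 2 called genes. Socs3, of the other list, turned without probe sets of several transcripts (-0.080, Ube2m shRNA against control). Socs4 turned on its other probe sets against control, each read alone: 0.15, 0.0063 and 0.20. Against Ube2f shRNA, those of 0.15 and 0.20 turned (0.22 and 0.12). That of 0.0063 did not turn there (-0.42, limma adjusted p = 0.401). The cause was not tested. Over all genes, the replicate block gave 1866 calls for Ube2m shRNA and 1225 for Ube2f shRNA against control, where 1031 and 551 passed without it. With that block Klhdc3 passed for Ube2m shRNA (adjusted p = 0.0201) and Appbp2 for Ube2f shRNA (adjusted p = 0.0393). Same-numbered replicates 1, 2 and 3 correlated with control at -0.0046, 0.19 and 0.32 for Ube2m shRNA, and at 0.015, 0.16 and 0.35 for Ube2f shRNA. Replicates 2 and 3, but not 1, correlated best with their own number. Since the correlation of replicate 1 was near 0, control arrays were not treated as paired.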
